A study of Mus musculus with 10 samples.

Results

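The 10 genes below, which encode the core of the mTOR and AKT pathway, were followed in muscle satellite cells (MuSCs) with and without the ion channel TRPM7. The genes were Mtor, Rptor, Rictor, Mlst8, Deptor, Akt1, Rheb, Tsc1, Tsc2 and Rps6kb1. They were chosen by name for what their proteins do, with earlier results of these data known. All 10 were found among the 24608 gene symbols of the count table. Transcripts were counted at their 3′ end by CEL-Seq2 in 5 libraries of each genotype, control and Trpm7 cKO, with 3000 sorted YFP-positive MuSCs per library, 3 days after injury of skeletal muscle by cardiotoxin (CTX). Controls were Trpm7+/+; Pax7CreERT2/+; Rosa26YFP and Trpm7 cKO mice were Trpm7 flox/flox; Pax7CreERT2/+; Rosa26YFP. Both therefore carried the tamoxifen-inducible Cre, which is driven from the Pax7 locus and so acts in cells that express Pax7, and both received 5 injections of tamoxifen (TMX). The mice were on a C57BL6 background, and the methods give 7 to 20 weeks of age for the mice of the study as a whole. The labels of Trpm7 cKO libraries 4 and 5 share a number whose meaning is not stated, so that these libraries may not come from unrelated animals. Where nothing else shows that libraries come from separate animals, p-values measure the spread between these libraries.

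mTOR is a protein kinase that works in a pair of complexes. With RPTOR it forms mTORC1, which drives protein synthesis and cell growth and restrains autophagy, and with RICTOR it forms mTORC2, which phosphorylates AKT. Growth factors act through PI3K, PDK1 and AKT to relieve the block that the TSC1-TSC2 complex puts on the small GTPase RHEB, the direct activator of mTORC1, whereas amino acids act through the Rag GTPases at the lysosome. In MuSCs, mTORC1 activity accompanies the growth in cell size and the alert state that precede cell cycle entry. These are controls of protein activity, largely by phosphorylation, and the libraries measured transcripts only.

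Control libraries held 914361 to 1097709 counts and Trpm7 cKO libraries held 205986 to 581121 counts, with no overlap between the genotypes (two-sided exact permutation test, p = 0.00794, which is the lowest value that 5 against 5 libraries can give). The summed level of the 16 MuSC identity and myogenic markers was 5434 to 6331 CPM (counts scaled to the effective library size by edgeR's TMM method) in control and 3683 to 6463 CPM in Trpm7 cKO libraries, so that markers of the labelled cell type were present in all 10. Of these 16, all tested, 6 had higher and 5 had lower levels in Trpm7 cKO, so that the sum hides changes in both directions, and scaling on this list carries them too. The summed level of 32 leukocyte markers was 325 to 589 CPM in control and 1365 to 5642 CPM in Trpm7 cKO libraries, and all 22 of these markers that were tested were higher in Trpm7 cKO. Cd3e, Cd79a and Nkg7 of that list were at 0 in every control library. The methods, which describe the sort for uninjured muscle, name antibodies to Sca-1, CD45 and CD31 beside the CD106 by which MuSCs were collected. Endothelial (3 of 3 tested higher), pericyte (3 of 3), erythroid (3 of 3) and fibroadipogenic progenitor markers (4 of 5) were also higher. Notch3 stood on both the pericyte list and the list of MuSC identity and myogenic markers, and counted as higher in both. The part that these other cells had in the results below was not tested apart from a fit with the leukocyte score as a covariate, the score being the mean log2 CPM of the tested leukocyte markers, and since it does not overlap between the genotypes, score and genotype cannot be told apart. Mitochondrial genes took 12.0% to 16.5% of the counts in control and 8.82% to 10.6% in Trpm7 cKO libraries, also without overlap (exact permutation test, p = 0.00794), and the part of this in the results was not tested. In such bulk libraries, fewer cells of a type and less RNA per cell cannot be told apart either. Trpm7 itself was at 76.9 ± 9.97 CPM in controls and 71.4 ± 22 CPM in Trpm7 cKO libraries (mean ± SD, n = 5 each), with a log2 fold change of -0.09 (standard error 0.20, edgeR adjusted p = 0.723). Counts of 3′ ends need not include the deleted part of a gene, the position of which was not used here, so that this value does not check the labels.

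Transcripts of the kinase mTOR, of its upstream activators AKT1 and RHEB and of TSC2, which inhibits RHEB, were lower in the Trpm7 cKO libraries, and that of the mTOR inhibitor DEPTOR was higher. Of the 10 genes, 9 had enough counts to be tested among 7753 genes with edgeR's quasi-likelihood test, and 5 of the 9 changed at a Benjamini-Hochberg adjusted p below 0.05. Mtor, Akt1, Rheb and Tsc2 fell and Deptor rose, whereas Rptor, Rictor, Tsc1 and Rps6kb1 did not pass the test and Mlst8 was too low to be tested. Of all tested genes, 48.7% passed the same threshold, 24.1% with lower and 24.6% with higher levels in Trpm7 cKO, so that 5 of 9 was near the share of all genes. Only Deptor was also beyond a log2 fold change of 1.5, which 12.0% of all tested genes were. For 4 of the 9 genes, namely Mtor, Akt1, Tsc2 and Deptor, the normalized levels of the genotypes did not overlap, as was the case for 34.5% of all tested genes. Values listed for the libraries of a genotype stand in the order of replicates 1 to 5. The median log2 fold change of the 9 genes was -0.55, and that of all tested genes was -0.01.

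**Figure D1:**
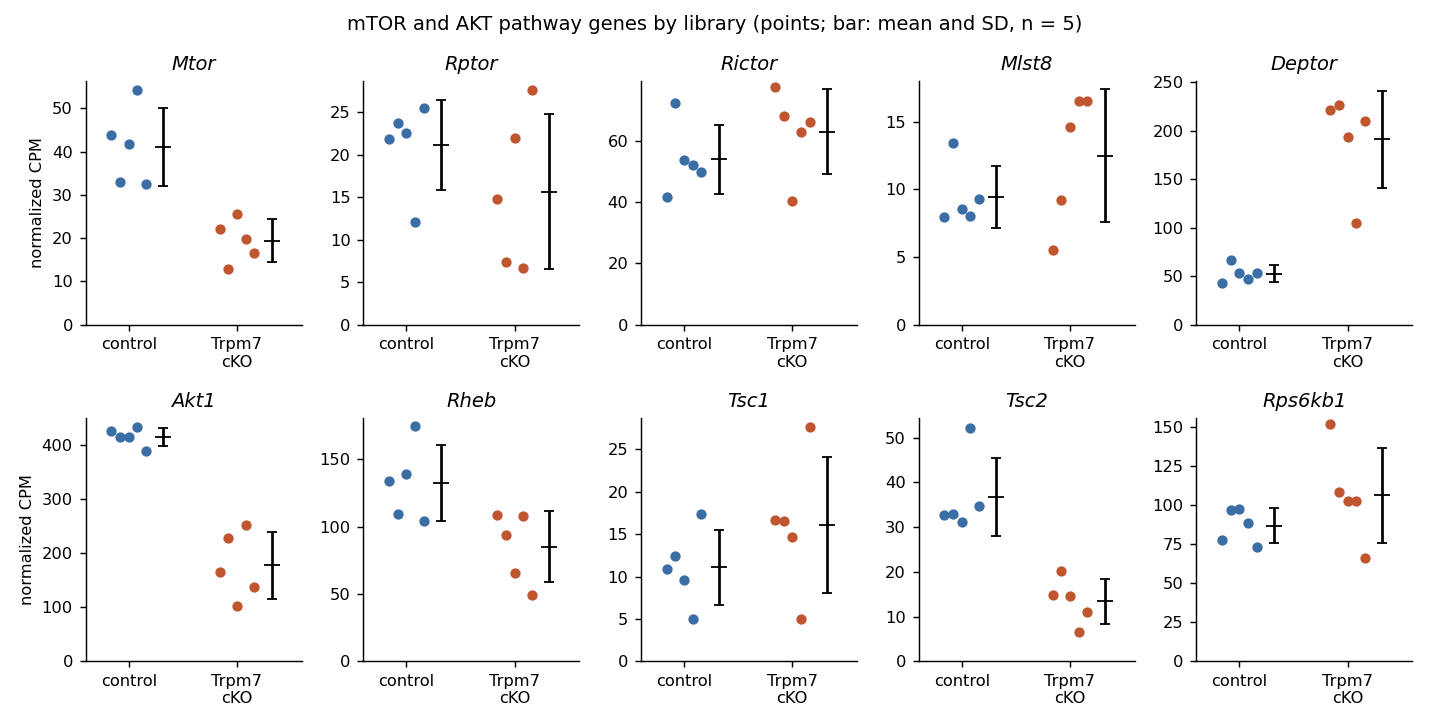
Normalized CPM (y axis, linear from 0, a separate scale per gene) of the 10 genes in each control (blue) and Trpm7 cKO (orange) library, with the mean and SD (n = 5) as a black bar. The points of the genotypes are separate for Mtor, Akt1 and Tsc2, which are lower in Trpm7 cKO, and for Deptor, which is higher in Trpm7 cKO, and overlap for the other 6 genes.

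Mtor encodes the kinase shared by both complexes (chr4:148448611-148557683 on the plus strand in GRCm38). Its counts were 44, 32, 39, 54 and 28 in the controls and 12, 7, 7, 12 and 3 in the Trpm7 cKO libraries. The latter alone would not have been enough for Mtor to be tested. Normalized levels were 43.8, 33.0, 41.8, 54.2 and 32.4 CPM in control and 22.2, 12.9, 25.6, 19.9 and 16.6 CPM in Trpm7 cKO libraries. Every Trpm7 cKO library lay below every control library, and the mean fell from 41.0 to 19.4 CPM, with SDs of 8.94 and 4.92 CPM (n = 5 each). The log2 fold change was -1.09 (standard error 0.26, 95% interval -1.64 to -0.57), a 2.13-fold lower level (edgeR adjusted p = 0.00143). With the leukocyte score as a covariate it was -0.95 and no longer passed the test (edgeR adjusted p = 0.617).

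Rptor encodes the subunit that recruits substrates to mTORC1 (chr11:119602905-119899576 on the plus strand). Rptor was at 21.9, 23.8, 22.5, 12.0 and 25.5 CPM in the controls and at 14.8, 7.36, 21.9, 6.63 and 27.6 CPM in the Trpm7 cKO libraries. The genotypes overlapped. The log2 fold change of -0.69 had a 95% interval of -1.45 to 0.05 and did not pass the test (edgeR adjusted p = 0.116). Control replicate 4 was lower than the other controls, and the 2 smallest libraries, Trpm7 cKO replicates 3 and 5, gave the highest Trpm7 cKO levels, from 6 and 5 counts. Without these 2 libraries, the log2 fold change was -1.13 and passed the test (edgeR adjusted p = 0.0252).

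Mlst8 encodes a small subunit that stabilizes the kinase in both complexes (chr17:24473551-24479078 on the minus strand). It had 8, 13, 8, 8 and 8 counts across the controls and 3, 5, 4, 10 and 3 counts across the Trpm7 cKO libraries. This was 9.45 ± 2.28 CPM in controls and 12.5 ± 4.92 CPM in Trpm7 cKO libraries (mean ± SD, n = 5 each), a difference within the spread of the replicates (exact permutation test, two-sided, p = 0.238). At this depth, no difference of Mlst8 was detectable. Of the last 500 bases of its transcript, 34% are overlapped on the opposite strand by Bricd5, and the strand setting of the counting is not given in the sources used here.

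Rictor encodes the subunit that defines mTORC2 (chr15:6708379-6800401 on the plus strand). Rictor was at 41.8, 72.3, 53.6, 52.2 and 49.8 CPM in the controls and at 77.6, 68.1, 40.2, 63.0 and 66.2 CPM in the Trpm7 cKO libraries. Every control library lay within the range of the Trpm7 cKO libraries, 40.2 to 77.6 CPM. Replicate 2 was the highest control and replicate 3 the lowest Trpm7 cKO library. The log2 fold change was 0.25, with a 95% interval of -0.16 to 0.67 that leaves room for a change in either direction (edgeR adjusted p = 0.306). The per-library ratio of Rptor to Rictor counts was 0.23 to 0.52 in control and 0.11 to 0.55 in Trpm7 cKO libraries, and overlapped.

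Deptor encodes a protein that binds mTOR and inhibits both complexes (chr15:55112317-55259271 on the plus strand). It had 43, 65, 50, 47 and 46 counts across the controls and 120, 123, 53, 63 and 38 counts across the Trpm7 cKO libraries, although each Trpm7 cKO library was the smaller one. Normalized levels were 42.8, 67.1, 53.6, 47.2 and 53.3 CPM in control and 222, 226, 194, 104 and 209.7 CPM in Trpm7 cKO libraries. All 5 Trpm7 cKO libraries were above all controls. The mean rose from 52.8 to 191 CPM, with SDs of 9.20 and 50.1 CPM (n = 5 each), and the log2 fold change was 1.84 (standard error 0.20, 95% interval 1.42 to 2.26, edgeR adjusted p = 5.29e-07). Replicate 4 was the lowest Trpm7 cKO library for Deptor, and it was also the one with the highest leukocyte sum, 5642 CPM, and the lowest sum of MuSC identity and myogenic markers, 3683 CPM. Replicate 5 had nearly the same leukocyte sum, 5551 CPM, with Deptor at 209.7 CPM. With the leukocyte score as a covariate, Deptor kept its direction at a log2 fold change of 2.57 (edgeR adjusted p = 0.00190), and it was the only one of the 9 genes to pass the test in that fit. Since score and genotype cannot be told apart, that fit does not settle the part of leukocytes in Deptor. On the scale of counts per 3000 sorted cells, on which the median of all genes was -1.17, its log2 fold change was 0.66 and did not pass the test (edgeR adjusted p = 0.103).

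Akt1 encodes the kinase that links PI3K to both the TSC complex and the FOXO transcription factors (chr12:112653821-112674884 on the minus strand). It was the most frequently counted of the 10 genes in control, with 429, 402, 387, 433 and 337 counts across the controls and 90, 124, 28, 153 and 25 counts across the Trpm7 cKO libraries. Normalized levels were 427, 415, 415, 435 and 390.1 CPM in control and 166, 228, 102, 254 and 138 CPM in Trpm7 cKO libraries. The controls lay close together, the Trpm7 cKO libraries were more spread, and the highest of the latter was well below the lowest of the former. The mean fell from 416 to 178 CPM, with SDs of 16.8 and 62.6 CPM (n = 5 each), and the log2 fold change was -1.18 (standard error 0.18, 95% interval -1.56 to -0.80, edgeR adjusted p = 2.52e-05). With the leukocyte score as a covariate it was -0.90 (edgeR adjusted p = 0.307), and the call was lost.

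Rheb encodes the GTPase that activates mTORC1 at the lysosome (chr5:24802823-24842624 on the minus strand). Rheb was at 134, 109, 139, 175 and 104 CPM in the controls and at 109, 93.9, 65.8, 108 and 49.7 CPM in the Trpm7 cKO libraries. The Trpm7 cKO libraries were lower on average but 2 of them, replicates 1 and 4, reached the range of the controls. The mean fell from 132 to 85.2 CPM, with SDs of 28.1 and 26.4 CPM (n = 5 each), and the log2 fold change was -0.55 (standard error 0.19, 95% interval -0.96 to -0.15, edgeR adjusted p = 0.0236). This was the least stable of the 5 calls. It was lost without both smallest libraries, Trpm7 cKO replicates 3 and 5 (log2 fold change -0.35, edgeR adjusted p = 0.136), without control replicate 4 (edgeR adjusted p = 0.0836), without Trpm7 cKO replicate 3 (edgeR adjusted p = 0.0658) on total counts alone (edgeR adjusted p = 0.0744) and on the scale of the MuSC identity and myogenic markers (edgeR adjusted p = 0.218), and with the leukocyte score as a covariate the log2 fold change was 0.05 (edgeR adjusted p = 0.979). Of the last 500 bases of the Rheb transcript, 20.4% lie in stretches of at least 31 bases also found in transcripts of other genes, which makes its counts uncertain to that extent.

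Tsc1 and Tsc2 encode the complex that switches RHEB off, TSC1 as its scaffold (chr2:28641228-28691167 on the plus strand) and TSC2 as the part that acts on the GTPase (chr17:24595816-24632630 on the minus strand). Tsc2 was at 32.8, 33.0, 31.1, 52.2 and 34.7 CPM in the controls and at 14.8, 20.2, 14.6, 6.63 and 11 CPM in the Trpm7 cKO libraries. Every Trpm7 cKO library was below every control library, from at most 11 counts per Trpm7 cKO library. From the Trpm7 cKO libraries alone, Tsc2 would not have had enough counts to be tested. The mean fell from 36.8 to 13.5 CPM, with SDs of 8.72 and 5.04 CPM (n = 5 each), and the log2 fold change was -1.43 (standard error 0.30, 95% interval -2.06 to -0.82, edgeR adjusted p = 0.000487). With the leukocyte score as a covariate it was 0.24 (edgeR adjusted p = 0.904). Tsc1 was at 10.9, 12.4, 9.65, 5.02 and 17.4 CPM in the controls and at 16.6, 16.6, 14.6, 4.97 and 27.6 CPM in the Trpm7 cKO libraries. The genotypes overlapped throughout, from 3 to 15 counts per library, and the log2 fold change of 0.37 had a 95% interval of -0.47 to 1.23 (edgeR adjusted p = 0.463). All of the last 500 bases of the Tsc2 transcript are overlapped on the opposite strand by Pkd1. Reads of the overlapping genes cannot be told apart without strand. Pkd1 itself was at 0 to 6 counts in the 10 libraries.

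Rps6kb1 encodes the S6 kinase, which mTORC1 phosphorylates and which in turn phosphorylates ribosomal protein S6 (chr11:86498871-86544805 on the minus strand). Rps6kb1 was at 77.6, 97.1, 97.6, 88.3 and 72.9 CPM in the controls and at 152, 109, 102, 103 and 66.2 CPM in the Trpm7 cKO libraries. Trpm7 cKO replicate 1 was the highest of all libraries and replicate 5 the lowest. The log2 fold change was 0.35 (95% interval -0.02 to 0.72, edgeR adjusted p = 0.114). Without Trpm7 cKO replicate 5, the smallest library, it was 0.43 and passed the test (edgeR adjusted p = 0.0424). Without Trpm7 cKO replicate 1, the highest library, it was 0.16 (edgeR adjusted p = 0.477). Rnft1 overlaps 31% of the last 500 bases on the opposite strand. Rnft1 had a log2 fold change of 0.21 (edgeR adjusted p = 0.498).

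**Figure D2:**
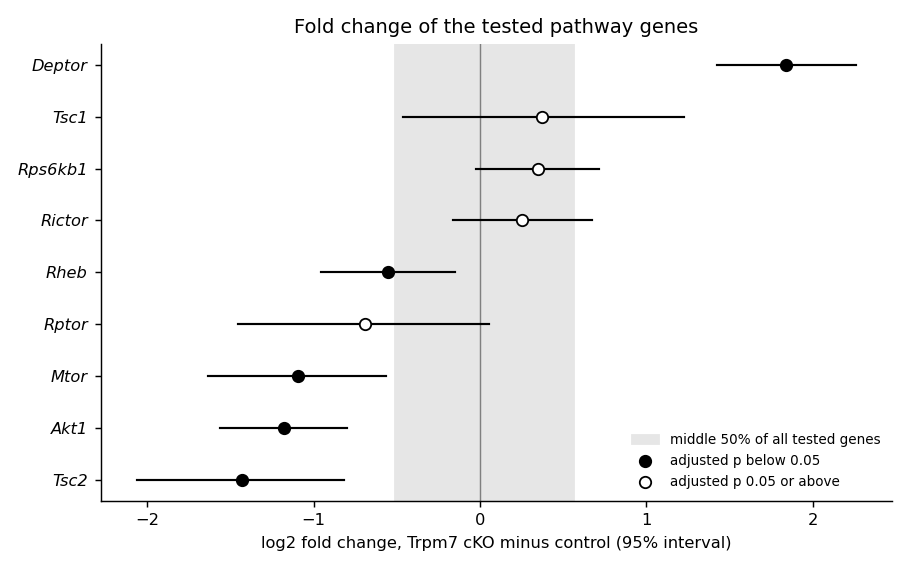
Log2 fold change (x axis, Trpm7 cKO minus control) of the 9 tested genes, with 95% intervals, as filled points where the edgeR adjusted p is below 0.05 and open points otherwise. The grey band holds the middle 50% of all tested genes, from -0.51 to 0.56; Tsc2, Akt1, Mtor, Rptor and Rheb lie to its left and Deptor to its right.

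The promoters of the 4 genes that fell are shown to place the letters searched for in them. RefSeq windows of 250 bases before the transcription start (GRCm38.p6) were matched for 9 of the 10 genes, in 10 windows, since Akt1 has 2 of them. The motifs searched on both strands were GTAAACA of the FOXO factors, which AKT inhibits, CACGTG of the MYC and TFEB factors, CAGCTG of MYOD1, and CCAAT, the box read by NF-Y. In the sequences below, written 5′ to 3′ on the strand of the gene, capitals mark a match of either strand. The windows are chr4:148448332-148448581 (plus strand) for Mtor, chr12:112674885-112675134 (minus strand) for the upstream start of Akt1, chr5:24842362-24842611 (minus strand) for Rheb, and chr17:24632628-24632877 (minus strand) for Tsc2.
Mtor: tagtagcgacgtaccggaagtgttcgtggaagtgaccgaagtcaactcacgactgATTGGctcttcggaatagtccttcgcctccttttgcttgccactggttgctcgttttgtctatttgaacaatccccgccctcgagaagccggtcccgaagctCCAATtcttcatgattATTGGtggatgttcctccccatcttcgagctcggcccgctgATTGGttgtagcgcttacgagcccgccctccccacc
Akt1: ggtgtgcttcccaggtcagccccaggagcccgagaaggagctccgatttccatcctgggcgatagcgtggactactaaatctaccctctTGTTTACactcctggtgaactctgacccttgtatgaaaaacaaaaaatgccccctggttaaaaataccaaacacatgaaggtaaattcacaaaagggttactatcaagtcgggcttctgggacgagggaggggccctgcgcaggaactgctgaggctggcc
Rheb: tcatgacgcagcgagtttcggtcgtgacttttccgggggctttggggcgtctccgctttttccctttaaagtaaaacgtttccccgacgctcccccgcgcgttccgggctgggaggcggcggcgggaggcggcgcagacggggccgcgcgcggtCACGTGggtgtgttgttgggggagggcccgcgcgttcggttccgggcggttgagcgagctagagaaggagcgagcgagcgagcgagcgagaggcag
Tsc2: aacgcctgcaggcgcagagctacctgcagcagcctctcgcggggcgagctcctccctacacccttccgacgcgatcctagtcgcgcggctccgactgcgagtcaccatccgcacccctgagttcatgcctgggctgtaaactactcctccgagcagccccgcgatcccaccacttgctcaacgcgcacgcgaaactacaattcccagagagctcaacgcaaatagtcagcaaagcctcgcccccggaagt
Mtor held 4 matches of CCAAT, at 195, 93, 77 and 36 bases before the start, and 0.840% of 32851 promoters held 4 or more, a count chosen after the matches were seen. The bases after this Mtor start were not found in the GENCODE transcript used here. The one match of Akt1 was GTAAACA at 161 bases, a motif found in 3.17% of promoters, and that of Rheb was CACGTG at 96 bases, found in 6.02%. The other Akt1 window, chr12:112674277-112674526, had no match, and it is the one whose bases after the start were found in the GENCODE transcript used here. Tsc2 had no match. Among the other windows, Rictor had 1 match of CCAAT, found in 33.9% of promoters, and CAGCTG, found in 13.0%, was in no window of the 10 genes. No motif was thus shared by the 4 genes in these windows. A match is a match of letters only.

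Ratios within a library do not depend on how libraries are scaled, and the following were chosen after the values were seen and are given without a test. Counts of 3′ ends are not scaled by transcript length, and the ratios are compared between genotypes only. The number of Deptor counts per Mtor count was 0.98, 2.03, 1.28, 0.87 and 1.64 in the controls and 10, 17.6, 7.57, 5.25 and 12.7 in the Trpm7 cKO libraries. The lowest Trpm7 cKO ratio was above the highest control ratio, so that each Trpm7 cKO library had more counts of the inhibitor per count of the kinase than any control. Tsc2 counts per Tsc1 count were 2.00 to 10.4 in control and 0.40 to 1.33 in Trpm7 cKO libraries, without overlap. These rest on few counts, since Tsc1 had 5 to 15 in control and 3 to 9 in Trpm7 cKO libraries. Tsc2 had 2 to 11 counts in Trpm7 cKO libraries. Rps6kb1 counts per Mtor count were 1.63 to 2.94 in control and 4.0 to 8.43 in Trpm7 cKO libraries, also without overlap. Mtor, by which Deptor and Rps6kb1 were divided, had 3 to 12 counts in Trpm7 cKO libraries.

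The fall of Akt1 was not shared by Akt2, which encodes the paralogue best known for its part in the response to insulin. Akt2 was at 51.7, 68.2, 65.4, 57.2 and 69.5 CPM in the controls and at 124, 88.3, 102, 113 and 149 CPM in the Trpm7 cKO libraries. It was higher in each Trpm7 cKO library than in any control, with a log2 fold change of 0.85 (standard error 0.17, 95% interval 0.51 to 1.21, edgeR adjusted p = 0.000298). The number of Akt1 counts per Akt2 count was 8.25, 6.09, 6.34, 7.60 and 5.62 in the controls and 1.34, 2.58, 1.00, 2.25 and 0.93 in the Trpm7 cKO libraries. The highest Trpm7 cKO ratio was below the lowest control ratio.

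**Figure D3:**
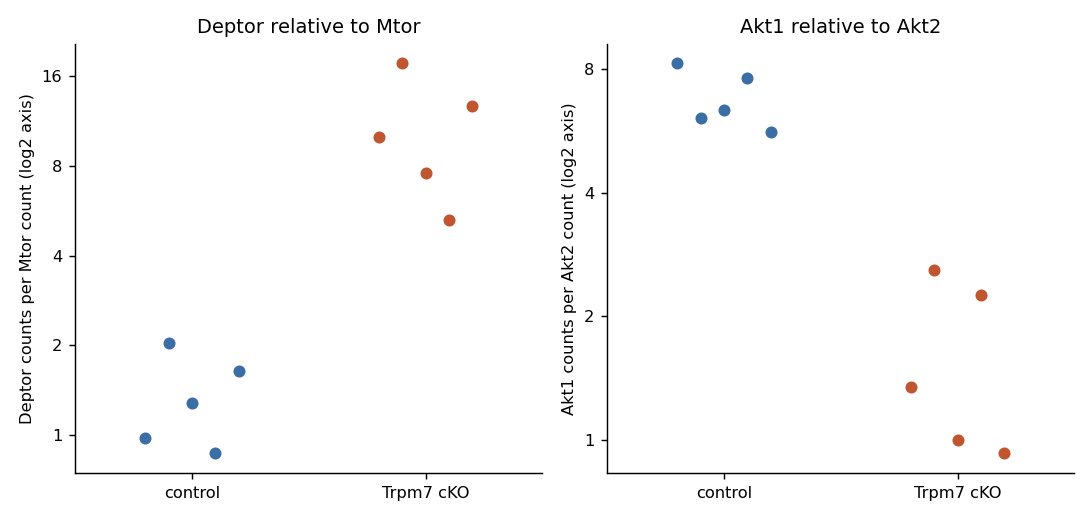
Left, Deptor counts per Mtor count in each library (log2 axis); right, Akt1 counts per Akt2 count (log2 axis), with control libraries in blue and Trpm7 cKO libraries in orange. The Deptor ratio is 0.87 to 2.03 in control and 5.25 to 17.6 in Trpm7 cKO, and the Akt1 ratio is 5.62 to 8.25 in control and 0.93 to 2.58 in Trpm7 cKO.

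For Mtor, Akt1, Tsc2 and Deptor, the gene whose log2 CPM followed it most closely over the 10 libraries was found by Pearson's r, as a description. The difference between the genotypes is part of these values, and r within the genotypes is given beside them. They were Fam214b for Mtor (r = 0.978, within genotypes 0.910), Eef1e1 for Akt1 (r = 0.990, within 0.952), Cdkn1a for Tsc2 (r = 0.974, within 0.878) and Cxcl1 for Deptor (r = 0.994, within 0.947). Each was the best of all other tested genes, so that a high r had to be found. Libraries differ in depth, which these values share.

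The 101 other genes of the pathway were listed by role, with earlier results of these data known. The shares of these lists set beside those of all tested genes are therefore descriptions only. Of these, 65 were tested, 20 rose and 14 fell in Trpm7 cKO, and 31 did not pass the test, whereas 36 were too low to be tested. The tested genes thus rose in 30.8% and fell in 21.5% of cases, against 24.6% and 24.1% of all genes, and their median log2 fold change was 0.15. Beyond a log2 fold change of 1.5, there were 10 higher and 3 lower genes of the 65, whereas 12.0% of all tested genes were beyond it in either direction. Of the higher ones, Sgk3, Prkag2 and Lpin1 had 2 to 6, 5 to 10 and 7 to 13 counts in control libraries. They passed the filter on low counts only through the Trpm7 cKO libraries, so that they could enter the test only by being higher there. Sesn1, Fnip2 and Ddit4l, with 3 to 22, 8 to 14 and 11 to 21 counts in control libraries, also needed Trpm7 cKO libraries to pass it. Lower genes with few counts in Trpm7 cKO libraries, such as Tti1 and Fbxo32, likewise passed it only through the controls. With a stricter filter, at least 10 counts in 5 libraries, 17 were higher and 16 lower of 61 tested, so that the excess of higher genes depended on the filter. With the leukocyte score as a covariate, 7 were higher and 1 was lower. Scaling on the MuSC identity and myogenic markers, which moved the median of all genes to 0.15, gave 22 higher and 9 lower genes, and counts per 3000 sorted cells gave 2 higher and 38 lower. Adjusted p-values by edgeR's quasi-likelihood test follow each log2 fold change in parentheses in the paragraphs on these genes.

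Upstream of AKT, 2 of the 4 tested PI3K subunits and adaptors rose and none fell, too few to set against the 24.6% of all tested genes that rose. Irs2, which couples insulin and IGF receptors to PI3K, rose from 47.6 to 171 CPM, a log2 fold change of 1.79 (8.23e-07). It was at 55.7, 52.7, 45.0, 45.2 and 39.4 CPM in the controls and at 170.0, 166, 227, 92.8 and 199 CPM in the Trpm7 cKO libraries, and the genotypes did not overlap. Pik3r1, the main regulatory subunit of PI3K, rose from 53.8 to 122 CPM, a log2 fold change of 1.12 (8.87e-05). Pdpk1, the kinase PDK1 that activates AKT, had a log2 fold change of -0.18 (0.412) and did not pass the test.

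Among the partners and assembly factors of mTOR, Akt1s1, an mTORC1 subunit that inhibits the complex and is a target of AKT, had a log2 fold change of 0.64 (0.0826) and did not pass. Mapkap1, the mTORC2 subunit SIN1, had -0.63 (0.0272) and fell. Of the chaperones that fold the mTOR kinase, Tti1 fell from 34.8 to 6.20 CPM, a log2 fold change of -2.13 (0.000504). Tti1 was at 47.7, 20.7, 32.2, 43.2 and 30.1 CPM in the controls and at 16.6, 11, 0, 3.31 and 0 CPM in the Trpm7 cKO libraries, of which replicates 3 and 5, the smallest libraries, had no count. With 0 to 9 counts in Trpm7 cKO libraries, Tti1 passed the filter on low counts only through the controls, where it was higher. Its partner Telo2 had -0.72 (0.0552) and did not pass the test.

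The stress and energy inputs, most of which act on the TSC complex or the Rag GTPases to hold mTORC1 back, had 5 of 11 tested genes higher (45.5%) and 1 lower (9.09%), against 24.6% and 24.1% of all tested genes. The 3 highest were Ddit4l at 2.53 (3.56e-07), Sesn1 at 2.44 (9.75e-06) and Prkag2 at 1.87 (0.000101). Prkag2 had 5 to 10 counts in control libraries and passed the filter on low counts only through the Trpm7 cKO libraries. Ddit4l, Sesn1 and Stk11 had 11 to 21, 3 to 22 and 4 to 16 counts in control libraries. Without the Trpm7 cKO libraries, they would not have passed it either. The 45.5% thus includes genes that entered the test through the group in which they were higher, and is a description only. Ddit4 and Ddit4l encode REDD proteins, which inhibit mTORC1 through TSC, and Sesn1 encodes a sestrin, which signals low leucine. Ddit4 was at 22.9, 22.7, 17.2, 18.1 and 35.9 CPM in the controls and at 102, 44.2, 80.4, 41.4 and 177 CPM in the Trpm7 cKO libraries, and its log2 fold change was 1.77 (0.000561). The Trpm7 cKO libraries were all above the controls but differed widely. Sesn1 was at 2.98, 11.4, 11.8, 8.03 and 25.5 CPM in the controls and at 88.7, 49.7, 69.4, 49.7 and 66.2 CPM in the Trpm7 cKO libraries, again without overlap. Prkag2 is a regulatory subunit of AMPK, the energy sensor, and Stk11, its activating kinase LKB1, had 1.19 (0.0150) from a control mean of 8.18 CPM. Not all members of a family moved alike: Sesn3 fell by 0.88 on the log2 scale (edgeR adjusted p = 0.00960).

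At the lysosome, 3 of 11 tested genes of the Rag GTPases, Ragulator and their regulators rose (27.3%) and 2 fell (18.2%), near the shares of all tested genes. Fnip2 at 1.65 (0.000209) and Fnip1 at 1.56 (9.09e-07), the partners of folliculin in Rag control, and Lamtor4 at 0.71 (0.00667) were higher. Fnip2 rose from a low control mean of 11.5 CPM and needed Trpm7 cKO libraries to pass the filter on low counts. Lamtor1, which anchors Ragulator to the lysosome membrane, fell from 182 to 69.3 CPM at -1.35 (1.24e-05), and Slc38a9, the arginine sensor of the lysosome, fell at -0.76 (0.0359). Lamtor1 was at 205, 131, 205, 232 and 138 CPM in the controls and at 62.8, 69.9, 58.5, 94.4 and 60.7 CPM in the Trpm7 cKO libraries, without overlap. Both tested genes of the GATOR and KICSTOR list fell, as did 24.1% of all tested genes, Sec13 at -1.57 (8.05e-07) and Seh1l at -1.05 (5.53e-05). These are also subunits of the nuclear pore or the COPII coat, and the other 11 genes of the list were too low to be tested.

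Downstream of mTORC1, 3 of 13 tested genes rose (23.1%) and 4 fell (30.8%), against 24.6% and 24.1% of all tested genes. Lpin1, which makes diacylglycerol and also acts in the nucleus, had 2.02 (4.73e-05) from a control mean of 9.95 CPM. It passed the filter on low counts only through the Trpm7 cKO libraries. Maf1, the repressor of RNA polymerase III, had 1.24 (0.00102) and Tfe3, a lysosomal transcription factor, had 0.82 (0.00620). The lowest were Eif4e, the cap-binding protein, at -0.95 (7.53e-05), Grb10, an adaptor that feeds back on insulin signalling, at -0.90 (0.000111) and Eif4ebp2, an inhibitor of the cap-binding protein, at -0.80 (0.00120). Eif4ebp1 was at 95.4 ± 20.9 CPM in controls and 75.7 ± 9.28 CPM in Trpm7 cKO libraries (mean ± SD, n = 5 each), with a log2 fold change of -0.35 (0.126). Rps6, which encodes the S6 protein itself, was at 517 ± 59.8 CPM in controls and 451 ± 96.6 CPM in Trpm7 cKO libraries (mean ± SD, n = 5 each), with a log2 fold change of -0.19 (0.319) and a 95% interval of -0.51 to 0.13. Neither passed the test.

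Among the targets of AKT and mTORC2, 4 of 10 tested genes rose (40%) and 1 fell (10%), against 24.6% and 24.1% of all tested genes. Foxo1 and Foxo3, the transcription factors that AKT keeps out of the nucleus, rose from 36.3 to 103 CPM, at 1.52 (8.78e-07), and from 42.3 to 95.1 CPM, at 1.15 (0.000131). Sgk3, a kinase related to AKT, had 2.30 (2.55e-05) from a control mean of 4.47 CPM, and passed the filter on low counts only through the Trpm7 cKO libraries. Sgk1 fell at -0.45 (0.00661). Genes that FOXO factors are known to induce moved both ways, 1 of 7 tested being higher (14.3%) and 2 lower (28.6%), the latter near the 24.1% of all tested genes. Bcl6, a transcriptional repressor, rose at 1.39 (1.20e-05). Fbxo32, the muscle ubiquitin ligase atrogin-1, was at 56.7, 52.7, 63.3, 51.2 and 60.2 CPM in the controls and at 7.39, 5.52, 14.6, 16.6 and 11 CPM in the Trpm7 cKO libraries, and its log2 fold change was -2.38 (8.05e-07). With 2 to 10 counts in Trpm7 cKO libraries, Fbxo32 passed the filter on low counts only through the controls. Ccng2, a cyclin of resting cells, fell at -0.81 (0.00343).

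**Figure D4:**
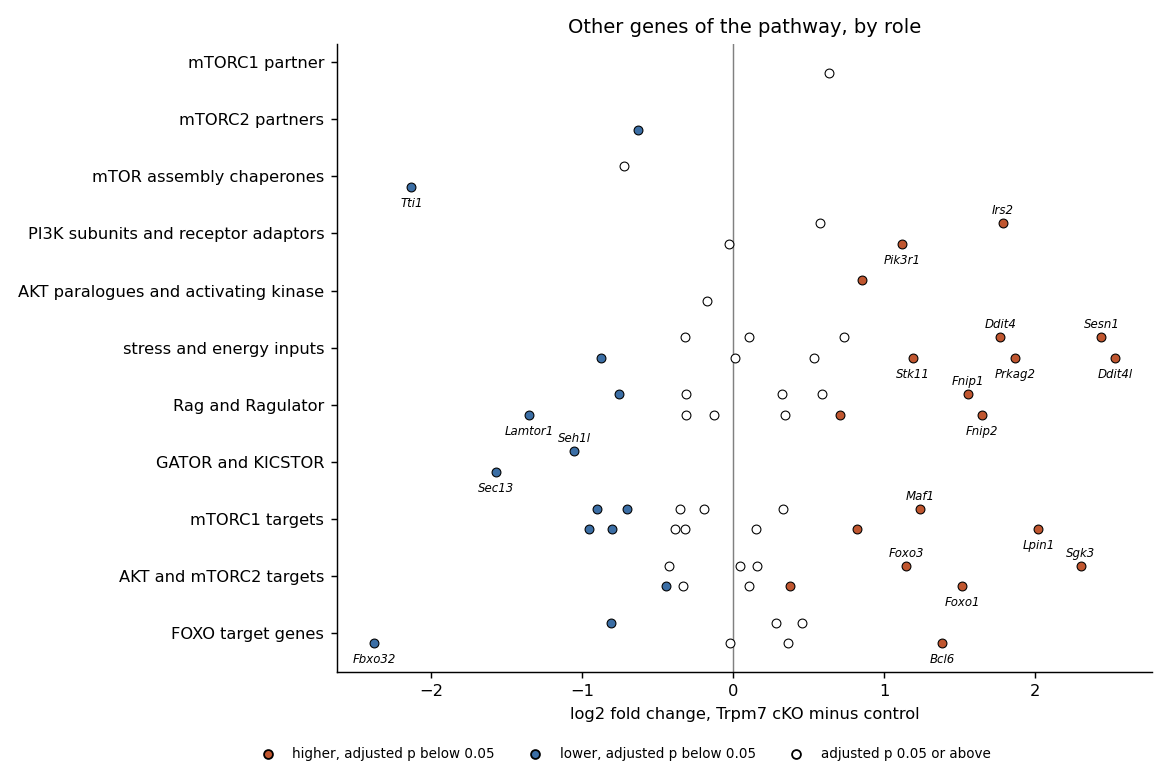
Log2 fold change (x axis, Trpm7 cKO minus control) of 64 of the 65 tested genes of the wider pathway, with 1 line of points per role; orange and blue points have an edgeR adjusted p below 0.05 and are higher or lower in Trpm7 cKO, and open points do not pass. Of these points 19 are orange and 14 are blue, and the stress and energy list has 5 orange points and 1 blue point.

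The direction of Mtor, Akt1, Tsc2 and Deptor held whichever library was left out. Over the 10 fits that leave out 1 library, the log2 fold change was -1.19 to -0.95 for Mtor, -1.35 to -1.05 for Akt1, -1.69 to -1.20 for Tsc2 and 1.74 to 2.00 for Deptor, and each of the 4 passed the edgeR test in all 10. Rheb was at -0.66 to -0.43 and passed in 8 of 10. Counts per 3000 sorted cells, which keep the smaller totals of the Trpm7 cKO libraries, gave lower values for all 8 genes tested on that scale, and Rictor and Rps6kb1 were below 0 on that scale but above the median of all genes, -1.17.

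**Figure D5:**
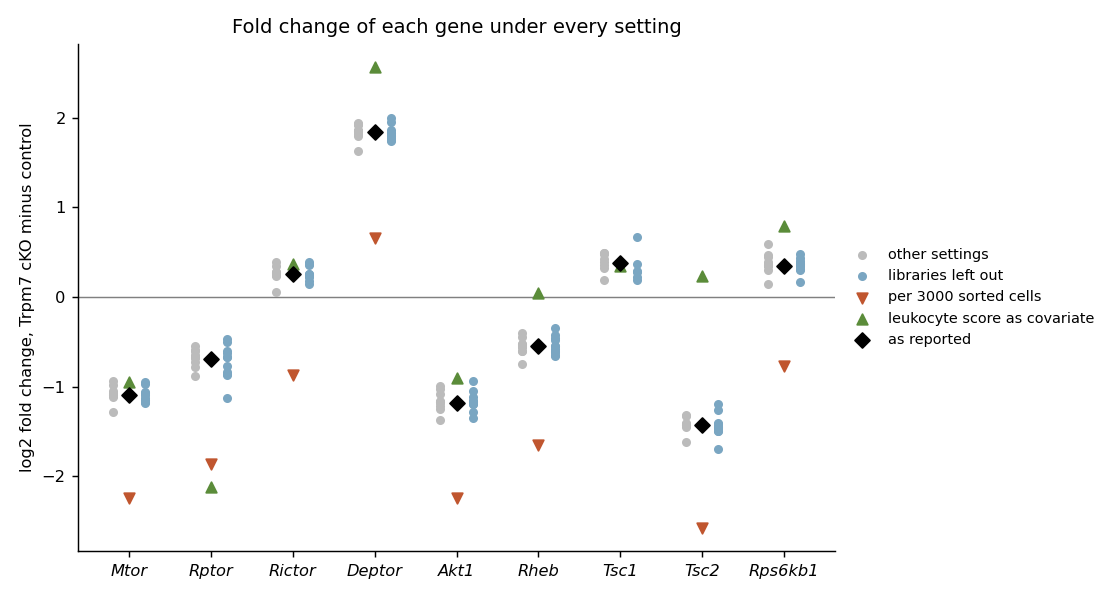
Log2 fold change (y axis, Trpm7 cKO minus control) of each tested gene as reported (black diamond) and under every other setting, with fits that leave out libraries, counts per 3000 sorted cells and the leukocyte covariate marked apart. Deptor stays above 0 and Mtor and Akt1 stay below 0 in every fit, Rheb and Tsc2 are above 0 with the leukocyte covariate (0.05 and 0.24), and Rictor and Rps6kb1 are below 0 per 3000 sorted cells.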

How the data were processed

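Sorted MuSCs of both genotypes were profiled by CEL-Seq2, a 3′ RNA-seq method with UMIs. The submitters' processing notes name UMI-tools 1.1.4, Trim Galore 0.6.10, HISAT2 2.2.1, featureCounts 2.0.6, DESeq2 1.30.1 and the build GRCm38. The values that the authors deposited are raw counts of UMI-deduplicated reads per gene, without normalization. The annotation release and strand setting are not given in the sources used here. Of 24620 entries, 12 symbols appeared on a further line, and the line with the larger total was kept. Genotype and replicate number came from the labels.

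The test was that of edgeR 4.0.16, run in R 4.3.3 (TMM, filterByExpr with a minimum count of 10 and minimum total of 15, robust quasi-likelihood F test, Benjamini-Hochberg adjustment over all 7753 genes, genotype as the only term). CPM values used the TMM-scaled library sizes. Log2 CPM for the search for similar genes had a prior count of 2. A call was an adjusted p below 0.05. The study's thresholds added a log2 fold change beyond 1.5. Single values were compared by exact permutation tests over 252 splits. Library totals of 205986 to 1097709 set the precision. Libraries of a genotype differed by at least 1.40 chi-square per degree of freedom, more than counting noise, and none was merged.  Positions came from GENCODE M21 (GRCm38), and promoters from RefSeq (GRCm38.p6).

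The members and gene lists were chosen with earlier results of these data known. Named genes are the members, Trpm7, up to 3 highest and 3 lowest changed genes per role list, 7 pathway genes always given (Pik3r1, Pdpk1, Akt2, Eif4ebp1, Rps6, Ddit4, Akt1s1) and the gene most similar to a changed member. Some genes that this rule names are not reported here. Telo2, Stk11, the genes in the closing observations, the overlapping genes Pkd1 and Rnft1, and the ratios were chosen after their values were seen. Alternatives were DESeq2 1.42.0, limma-voom (limma 3.58.1), RLE factors, total counts, scaling on MuSC identity and myogenic markers, counts per 3000 sorted cells, other filters, thinning to the smallest library, a replicate block, the leukocyte score as a covariate and each library left out. Leaving out both smallest libraries and summing Trpm7 cKO libraries 4 and 5 were added after the data were seen.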

Additional observations from a re-analysis of the deposited data

Results flagged for a closer look

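Of 38 groups of 5 libraries compared for a library far from the rest (Dixon's test for 5 samples, critical value 0.71, which chance passes in about 5% of groups), 7 held one. Among the pathway genes, Rptor was at 12.0 CPM in control replicate 4, against 21.9 to 25.5 CPM in the other controls. Mlst8 was at 13.4 CPM in control replicate 2, against 7.96 to 9.26 CPM. Deptor was at 104 CPM in Trpm7 cKO replicate 4, against 194 to 226 CPM in the other Trpm7 cKO libraries, and this was also the library with the lowest sum of MuSC identity and myogenic markers. Tsc2 was at 52.2 CPM in control replicate 4, against 31.1 to 34.7 CPM, and without that library its log2 fold change was -1.26 (edgeR adjusted p = 0.00168). Without Trpm7 cKO replicate 4, that of Deptor was 2.00 (edgeR adjusted p = 2.12e-09).

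Of the measures of the libraries, the mitochondrial share was 12.0% in control replicate 2, against 15.4 to 16.5%, and 10.6% in Trpm7 cKO replicate 5, against 8.82 to 9.20%. Erythroid markers summed to 178 CPM in control replicate 5, against 1.99 to 23.8 CPM in the other controls. Their part in the levels of the pathway genes was not tested.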

How the results depend on the processing

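DESeq2, limma-voom, RLE factors, a stricter filter, the sum of Trpm7 cKO libraries 4 and 5 and the replicate block kept the same 5 genes past the threshold. The stricter filter left 17 higher and 16 lower pathway genes. The shared replicate numbers did not pair the libraries, since same-numbered libraries had correlations of -0.12 to 0.18 and 1 of 5 controls correlated best with its own number. With the replicate block, 5 of the 9 genes, 19 higher and 14 lower pathway genes and 3572 of all genes passed, against 3774 without it.

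Scaling on the MuSC identity and myogenic markers left 9 lower pathway genes. Counts per 3000 sorted cells gave 5 of the members past both thresholds, with 2 higher and 38 lower pathway genes, and log2 fold changes of -0.87 for Rictor and -0.77 for Rps6kb1. Without a filter, 2 members were past both thresholds and 25 pathway genes were lower. After thinning to the smallest library, 11 pathway genes were higher and 7 lower, among fewer genes tested. Of the members, 5 were tested, and Mtor and Tsc2 were among those too low. Deptor, Akt1 and Rheb kept their calls, and Rps6kb1 passed at a log2 fold change of 0.60 (edgeR adjusted p = 0.0473). With the leukocyte score as a covariate, 1 member passed, with 7 higher and 1 lower pathway genes and 522 of all genes, and the log2 fold changes of Rheb and Tsc2 were 0.047 and 0.24. When 1 library was left out, between 1 and 2 members were past both thresholds, 2 of them without Trpm7 cKO replicate 2. The cause was not tested. Among all member values under these settings, 178 kept their direction and their side of the threshold, 8 kept their direction and lost the call, 6 kept their direction and gained it, and 4 changed sign. Of these 4, Rheb and Tsc2 also lost their call with the leukocyte covariate, and Rictor passed the test as lower per 3000 sorted cells (edgeR adjusted p = 0.0334). Genes with few counts, such as Mlst8, Tsc1, Tsc2 and Mtor, were limited by depth.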

Other observations

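Some pathway genes too low to be tested are known from blood cells or as alternatives to tested subunits, and are given as values, chosen after they were seen. Inpp5d, the phosphatase SHIP1 of blood cells, had 0 to 6 counts in control and 2 to 29 in Trpm7 cKO libraries (mean 2.22 and 20.3 CPM). Pik3cd, the PI3K catalytic subunit best known from leukocytes, had 3 to 5 counts in control and 4 to 19 in Trpm7 cKO libraries (mean 4.63 and 21.7 CPM). Both lists of values stood beside the higher leukocyte markers of the Trpm7 cKO libraries, and the part of these cells was not tested. Pik3r3, a regulatory subunit of PI3K, had 11 to 17 counts in control and 1 to 7 in Trpm7 cKO libraries (mean 15.2 and 6.89 CPM). Nprl3, a subunit of the GATOR1 complex that switches off the Rag GTPases, had 12 to 18 counts in control and 2 to 6 in Trpm7 cKO libraries (mean 15.7 and 8.6 CPM). Tbc1d7, the third subunit of the TSC complex, had 8 to 16 counts in control and 0 to 5 in Trpm7 cKO libraries (mean 13.5 and 4.97 CPM). The MIT/TFE factor Tfeb had 0 to 2 counts in control and 0 to 11 in Trpm7 cKO libraries (mean 0.843 and 6.95 CPM), which allows no comparison with its tested relative Tfe3.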
